A study of Mus musculus with 12 samples.

Results

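Medulloblastoma is a tumor of the cerebellum that is sorted into WNT, SHH and other subgroups by expression. The WNT pathway subgroup genes described here are *Sfrp1*, *Wif1*, *Dkk3*, *Axin1*, *Apc*, *Ctnnb1*, *Lef1*, *Tcf7l2*, *Axin2* and *Nkd1*, chosen by name from the expression table as 10 of its 24091 genes. All 10 had at least 1 TPM (a transcript level scaled for transcript length and library total) in every sample, so the filter on low values removed none. RNA was measured in 12 mouse samples, 3 in each of 4 groups. The first group was medulloblastoma of mice GB344, GB359 and GB370, labelled Brca2-mut;Trp53-mut, and the second was cerebellum next to the tumor from the same 3 animals. The other groups were age-matched control cerebellum, from Brca2-mut;Trp53-WT mice GB361, GB508 and GB512 and from Brca2-WT;Trp53-mut mice GB517, GB519 and GB520. The *Brca2* mutation is a deletion of floxed exons driven by Cre from a human GFAP promoter, which is active in many cell types of the developing brain, and the *Trp53* mutation is a knockout in every cell. Every control mouse therefore carried a mutation in *Brca2* or in *Trp53*, and no group with neither mutation was analysed here.

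In the WNT pathway, a secreted WNT protein binds a Frizzled receptor with an LRP coreceptor and stops a cytoplasmic complex of AXIN, APC and kinases from marking β-catenin for destruction. Stabilized β-catenin then enters the nucleus and switches on genes together with TCF and LEF factors, among them inhibitors such as *Axin2*, *Nkd1* and *Notum* that feed back on the pathway. Tumors of the WNT subgroup usually carry a mutation that stabilizes β-catenin, whereas SHH tumors arise from granule cell progenitors, the dividing precursors of cerebellar granule neurons. Some genes that act on WNT are used clinically to mark the other subgroup, and SFRP1 is one of the marker genes of SHH tumors.

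Depth cannot be read from TPM, so precision here is the spread between mice. Between 15088 and 15803 genes per sample reached 1 TPM. Gene-level TPM does not check the genotype labels, because transcripts that lack the deleted exons still count: *Brca2* averaged 11.2 TPM in tumors and 3.57 in Brca2-mut;Trp53-WT cerebella, and *Trp53* averaged 127 TPM in tumors and 48.6 in Brca2-WT;Trp53-mut cerebella. Cell markers set the tumors apart. The summed TPM of 5 markers of granule cell progenitors (*Atoh1*, *Mki67*, *Top2a*, *Ccnd2* and *Gli1*) ran from 844 to 1615 in tumors, from 59.8 to 498 in adjacent cerebella and from 20.7 to 47.4 in controls. The summed TPM of 6 granule neuron markers ran from 116 to 394 in tumors and from 2627 to 3384 in controls, and that of 6 Purkinje cell markers from 51.5 to 285 and from 4438 to 7550. Markers of mature oligodendrocytes were lower as well, at 95.7 to 318 against 3455 to 5319 TPM summed over 6 genes. The sum of 7 markers of astrocytes and Bergmann glia was 322 to 555 against 1992 to 2510 TPM, although *Gfap* alone overlapped, at 79.3 to 193 against 117 to 181 TPM. The sum of 5 oligodendrocyte precursor markers also overlapped, at 114 to 353 against 139 to 176 TPM. Among these, *Pdgfra* averaged 139 TPM in tumors and 9.87 in controls, *Cspg4* 15.2 and 4.77, and *Enpp6* 0.679 and 7.38. In whole tissue, fewer cells of a type and less RNA per cell cannot be told apart.

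The first question was how these genes differed between the tumors and normal cerebellum. *Sfrp1* and *Nkd1* were far higher in the 3 tumors than in the 6 control cerebella, *Axin1* and *Ctnnb1* were modestly higher, *Dkk3* was lower, and *Axin2*, *Lef1*, *Tcf7l2*, *Apc* and *Wif1* showed no difference that passed the test. Limma was run on log2(TPM + 1), and its p-values were adjusted by Benjamini-Hochberg over every gene in the test. A gene was called when the adjusted p was under 0.01 and the log2 fold change reached 1 in either direction. By that rule 2 of the 10 genes were called higher and 0 lower, with 4 higher and 1 lower at an unadjusted p under 0.05. For that unadjusted p the share of all genes was not computed. Of all 16241 genes tested, 14.4% were called higher and 21.5% lower, so the count of calls among the 10 is not far from the background. The 10 genes had a median log2 fold change of 0.18, against -0.11 over all genes. The plot of TPM by sample shows every value.

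**Figure D1:**
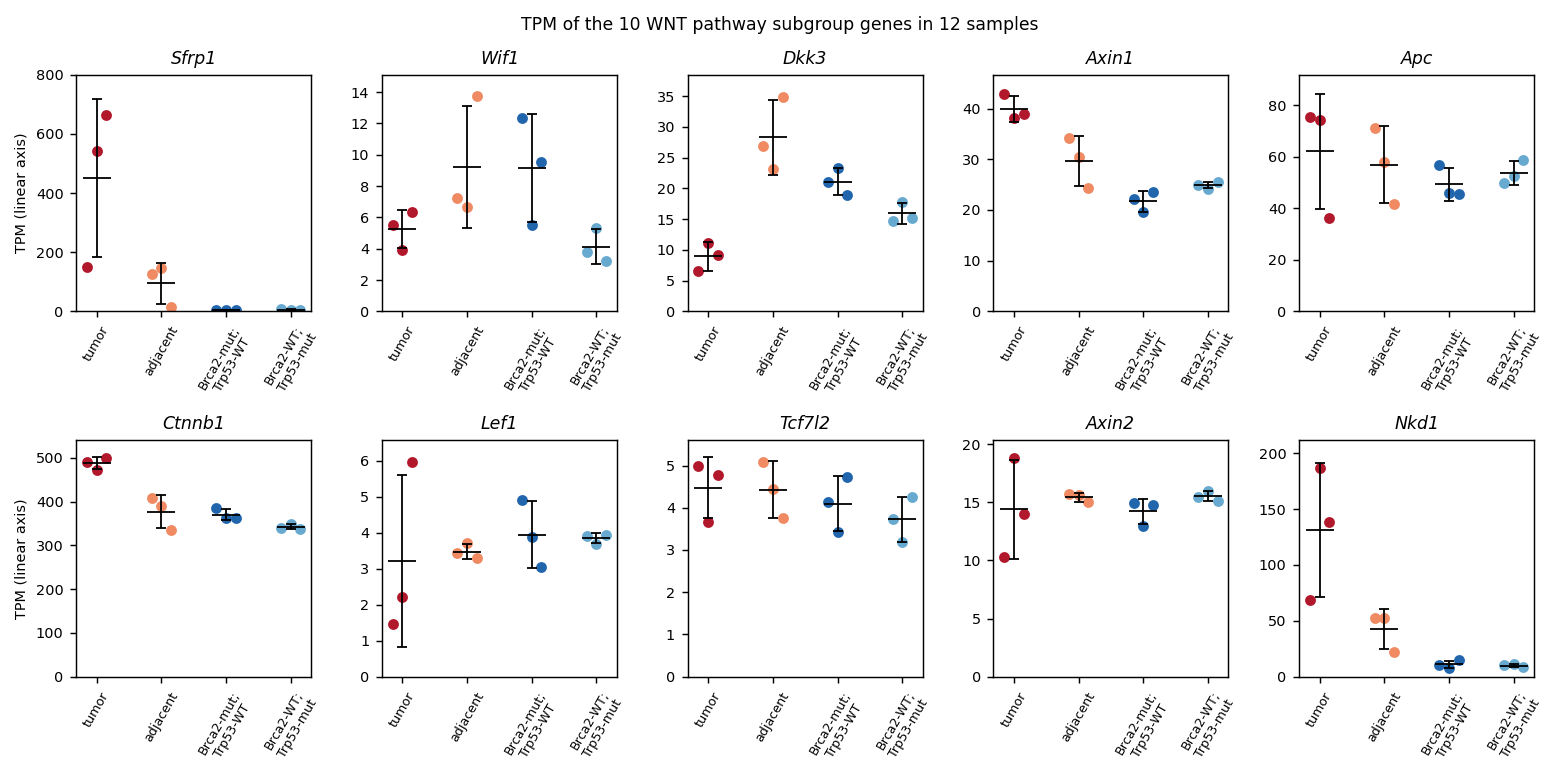
TPM of each of the 10 genes (vertical axes, linear, a separate scale per gene) in the 4 groups of 3 samples (horizontal axis). Points are single samples in the order of the mouse numbers, long bars are group means and error bars are 1 SD. *Sfrp1* and *Nkd1* lie far above the controls in every tumor, *Axin1* and *Ctnnb1* are higher and *Dkk3* lower in every tumor than in every control, and the other 5 genes overlap.

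Among the secreted inhibitors, *Sfrp1* showed the largest difference. *Sfrp1* encodes a secreted Frizzled-related protein, which binds WNT proteins outside the cell, and lies on mm10 chromosome 8 (chr8:23411383-23449632). Its level was 151 TPM in the tumor of GB344, 541 in that of GB359 and 664 in that of GB370. In the 6 controls it lay between 2.93 and 6.45 TPM, with a median of 5.67. No tumor overlapped the controls, and the lowest tumor stood 28.2-fold above the control mean. Tumors averaged 452 ± 268 TPM (SD, n = 3), against 5.36 ± 1.27 TPM (SD, n = 6) for the controls. The log2 fold change was 5.93 with a standard error of 0.41 (limma adjusted p = 4.16e-07). It ranked 17th from the top among 16241 genes by log2 fold change. The tumors themselves spread widely, with a coefficient of variation of 59.3%.

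*Dkk3* went the other way. *Dkk3* belongs to the Dickkopf family of secreted proteins, although it is not a typical WNT inhibitor, and lies at chr7:112116019-112159482. In the tumors, in the same order of mice, it measured 6.51, 11.1 and 9.20 TPM, and it lay between 14.8 and 23.3 TPM in the controls, with a median of 18.4. All 3 tumors lay below all 6 controls. The summed markers of neurons, mature oligodendrocytes and astrocytes given above were lower in the same tumors, and their part in the *Dkk3* values was not tested. On the log2 scale the difference was -0.98 with a standard error of 0.18 (limma adjusted p = 0.000661), just short of the fold change needed for a call. The value passed that line when some samples were left out, at -1.14 without the tumor of GB359, -1.02 without the tumor of GB370, -1.04 without the control GB517 and -1.03 without the control GB520. The weakest value with a sample left out was -0.80, short of the line. Against Brca2-mut;Trp53-WT cerebella alone the log2 fold change was -1.18 (limma adjusted p = 0.00214). Against Brca2-WT;Trp53-mut cerebella alone it was -0.79 (limma adjusted p = 0.0116), which passed neither threshold. Over the settings tried for tumors against controls, which include each control genotype alone, the limma adjusted p ran from 0.000426 to 0.0116.

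*Wif1* encodes WNT inhibitory factor, another secreted protein that binds WNTs, and is itself a marker gene of the human WNT subgroup (chr10:121034004-121100642). Its level was 5.52, 3.92 and 6.35 TPM in the tumors and from 3.19 to 12.4 TPM in the controls. The tumors fell inside the control range, with a log2 fold change of -0.18 and a 95% confidence interval from -0.96 to 0.60 (limma adjusted p = 0.659). The control genotypes lay on either side of the tumors for this gene. The fold change was -0.65 against Brca2-mut;Trp53-WT cerebella and 0.29 against Brca2-WT;Trp53-mut cerebella.

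In the destruction complex, the scaffold gene *Axin1* was higher in the tumors. *Axin1* (chr17:26131217-26195811) measured 42.9, 38.2 and 38.8 TPM in the tumors of GB344, GB359 and GB370 and from 19.5 to 25.5 TPM in the controls. The groups did not overlap, and the tumors were close together, with a coefficient of variation of 6.36%. The log2 fold change was 0.76 with a standard error of 0.10 (limma adjusted p = 5.47e-05), under the fold change needed for a call. *Apc* encodes the large scaffold whose loss stabilizes β-catenin in colon cancer. It measured 75.4, 74.5 and 36.4 TPM in the tumors, so that GB344 and GB359 lay above the highest control at 58.9 TPM and GB370 lay below the lowest control at 45.7 TPM. Over the 3 tumors the log2 fold change of *Apc* was 0.20 with a 95% confidence interval from -0.27 to 0.66 (limma adjusted p = 0.419). Without the tumor of GB370 it was 0.54 (limma adjusted p = 0.00234, from 0.00234 to 0.938 over the samples left out), still under the fold change needed for a call.

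*Ctnnb1*, the gene of β-catenin, had the highest control level of the 10 genes (chr9:120933400-120960507). It measured 491, 472 and 500 TPM in the tumors and between 338 and 385 TPM in the controls, with a median of 356. Every tumor exceeded every control, and both groups were tight, with coefficients of variation of 2.91% and 4.96%. Its log2 fold change was 0.45 with a standard error of 0.07 (limma adjusted p = 0.000125), a rise well under the 1 log2 unit needed for a call. *Ctnnb1* RNA does not measure β-catenin protein, whose level is set mainly by its destruction. Counting genes whose groups did not overlap, 4 of the 10 were higher in every tumor (*Sfrp1*, *Nkd1*, *Axin1* and *Ctnnb1*) and 1 was lower (*Dkk3*), where 28.3% of all genes tested were higher in this way and 35.7% lower.

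The nuclear factors were low in all groups. *Lef1* (chr3:131110297-131224357), which is strongly expressed in human WNT tumors, measured 1.47, 2.23 and 5.96 TPM in the tumors of GB344, GB359 and GB370 and from 3.05 to 4.90 TPM in the controls. Of the tumors, GB344 and GB359 lay below every control and GB370 lay above every control. The log2 fold change was -0.35 with a 95% confidence interval from -0.97 to 0.27 (limma adjusted p = 0.277), and -0.79 without the tumor of GB370 (limma adjusted p = 0.00296, from 0.00296 to 0.902 over the samples left out). The summed TPM of 6 endothelial markers rose in the same order in these tumors, at 92.7, 107 and 152 TPM, with controls between 121 and 138. This order was not particular to endothelium. It also held for the summed Purkinje markers (51.5, 201 and 285 TPM) and oligodendrocyte precursor markers (114, 303 and 353 TPM), but not for granule neuron markers (116, 394 and 294 TPM). Of the 6 endothelial markers 0 were called higher by limma and 2 lower in tumors, while 2 were higher and 3 lower in every tumor than in every control. *Cldn5*, which with *Pecam1* defines the list, was among the higher ones, at 57.5, 60.9 and 84.3 TPM in tumors against at most 50.5 TPM in controls. *Pecam1* lay between 9.40 and 16.2 TPM in tumors and between 12.7 and 15.1 TPM in controls, and the part of endothelial or other cells in the *Lef1* values was not tested. *Tcf7l2* (chr19:55741797-55933659) measured 4.98, 3.65 and 4.78 TPM in the tumors and from 3.19 to 4.72 TPM in the controls. Its log2 fold change was 0.16, with a 95% confidence interval from -0.16 to 0.47 (limma adjusted p = 0.346).

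The feedback inhibitors *Axin2* and *Nkd1*, both textbook targets of β-catenin, parted from each other. *Nkd1*, whose product binds Dishevelled and damps WNT signaling (chr8:88521342-88594887), measured 68.2, 187 and 138 TPM in the tumors of GB344, GB359 and GB370. The controls lay between 8.13 and 14.7 TPM, with a median of 10.1. Each tumor exceeded every control, by 6.52-fold, 17.9-fold and 13.2-fold over the control mean. The log2 fold change was 3.43 with a standard error of 0.28 (limma adjusted p = 1.48e-06), ranked 251st of 16241 genes. *Axin2* (chr11:108917828-108950783), the most widely used readout of the pathway, measured 10.3, 18.8 and 14.0 TPM in the same tumors and from 13.0 to 15.99 TPM in the controls. The tumor of GB344 lay below the controls, that of GB359 above them and that of GB370 within their range. For *Axin2* the log2 fold change was -0.08 with a 95% confidence interval from -0.43 to 0.27 (limma adjusted p = 0.661), an interval that does not reach a 2-fold change in either direction.

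Because these targets differed in the tumors, the 250 bases before a transcript start of each are shown, as given by RefSeq on GRCm38.p6 (mm10). The *Nkd1* window, chr8:88527383-88527632 on the plus strand, precedes the start of a shorter transcript inside the gene, and the *Axin2* window is chr11:108920099-108920348 on the plus strand. Both windows lie inside the gene coordinates given above, not before their first base. Capitals would mark a match to the TCF/LEF core CTTTGAT or to the GLI site GACCACCCA, the site of the Hedgehog effectors, searched on both strands, and neither window holds any.
Nkd1: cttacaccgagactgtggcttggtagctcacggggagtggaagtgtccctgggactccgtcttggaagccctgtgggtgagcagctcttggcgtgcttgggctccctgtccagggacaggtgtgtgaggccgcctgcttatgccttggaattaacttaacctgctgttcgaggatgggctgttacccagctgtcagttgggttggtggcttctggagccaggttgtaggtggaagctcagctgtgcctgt
Axin2: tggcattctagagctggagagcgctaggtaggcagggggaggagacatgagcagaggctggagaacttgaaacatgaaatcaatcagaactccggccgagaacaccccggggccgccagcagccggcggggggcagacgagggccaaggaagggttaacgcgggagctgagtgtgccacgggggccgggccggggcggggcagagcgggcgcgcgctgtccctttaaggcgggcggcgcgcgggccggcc
Windows of this length were given for 6 of the 10 genes, 11 in all, and 0 of them hold either motif. Of 32851 such windows, 3.21% hold the TCF/LEF core and 0.225% the GLI site. The absence of these letters from a short window says nothing about binding elsewhere in the gene.

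**Figure D2:**
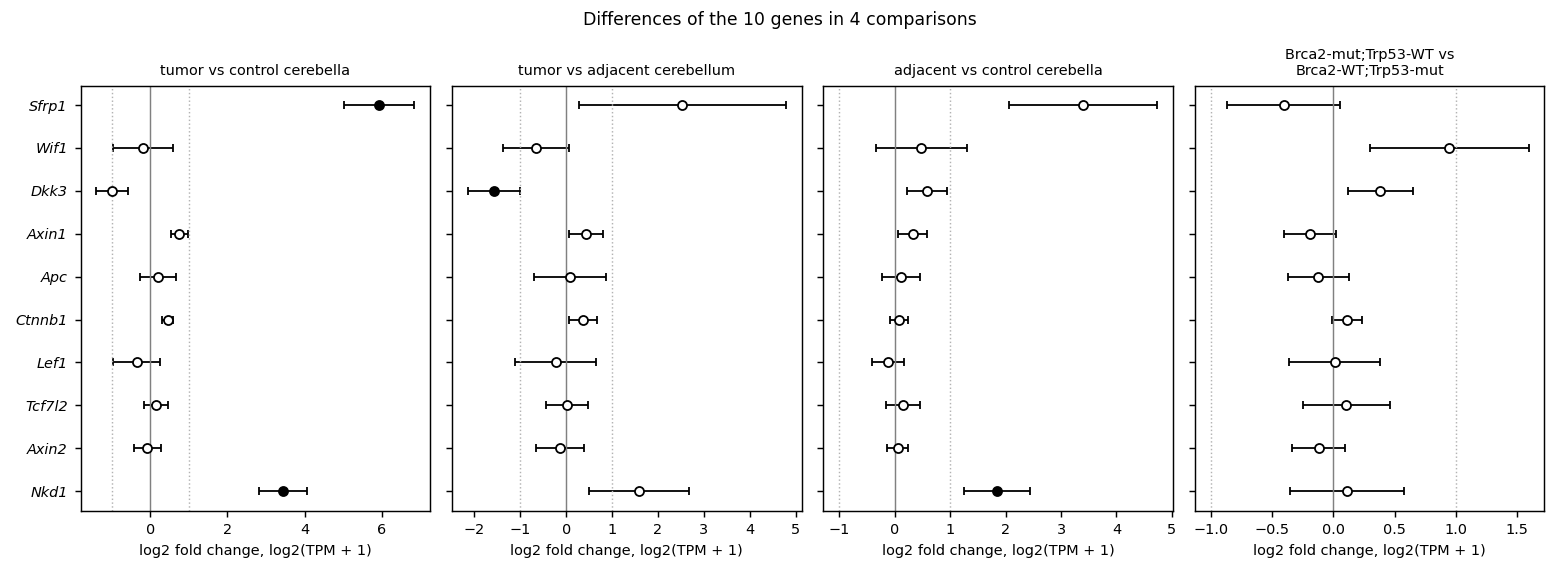
Log2 fold change of the 10 genes (horizontal axes, on the log2(TPM + 1) scale, a separate range per panel) in the 4 comparisons. Points are limma estimates with 95% confidence intervals, filled where the gene was called, and dotted lines mark log2 fold changes of -1 and 1. *Sfrp1* at 5.93 and *Nkd1* at 3.43 were called in tumors against controls, *Dkk3* at -1.57 in tumors against adjacent cerebellum, *Nkd1* at 1.84 in adjacent cerebellum against controls, and no gene between the control genotypes.

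To see which genes followed *Sfrp1* and *Nkd1*, all 16241 genes tested in tumors against controls were ranked by Pearson r of log2(TPM + 1) over the 12 samples. These values describe the shared shape of the profiles, which is set largely by the difference between tumors and the other tissue. The 3 genes most like *Sfrp1* were *Hsd11b2* (r = 0.995), *Gm11541* (r = 0.991) and *Atoh1* (r = 0.990). *Hsd11b2* encodes the enzyme that inactivates glucocorticoids, and *Atoh1* the transcription factor that defines granule cell progenitors. *Hsd11b2* measured 52.9, 407 and 314 TPM in the tumors, by mouse number, with 54.5, 55.6 and 4.08 TPM in the adjacent cerebella of these mice, and did not exceed 0.519 TPM in any control. The 3 genes most like *Nkd1* were *Srebf1* (r = 0.993), a regulator of lipid synthesis, *Grn* (r = 0.992), which encodes progranulin, and *Ccnd2* (r = 0.991), a cyclin of dividing progenitors. Both *Atoh1* and *Ccnd2* are on the list of progenitor markers above, whose 5 genes were all called higher in tumors, and the part of cell composition in the *Sfrp1* and *Nkd1* values was not tested.

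The second question was whether these differences were seen against cerebellum of the same tumor-bearing mice. In all 3 tumors *Sfrp1* and *Nkd1* exceeded every adjacent sample, but only *Dkk3* passed both thresholds. Here 1 of the 10 genes was called, in the lower direction, where 4.76% of 15845 genes were called higher and 18% lower. After median-of-ratios scaling the same comparison gave 1441 genes higher and 2410 lower in place of 755 and 2852, and it moved the median difference over all genes from -0.14 to 0.05 on the log2 scale. The calls on the 10 genes were the same under that scaling.

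*Dkk3* measured 26.8, 23.1 and 34.9 TPM in the adjacent cerebella of GB344, GB359 and GB370. Each adjacent sample was at least 208% of the tumor of its mouse, and the log2 fold change in tumors was -1.57 with a standard error of 0.24 (limma adjusted p = 0.00233). *Sfrp1* measured 125, 145 and 14.5 TPM in the adjacent cerebella. The lowest tumor, GB344, only just exceeded the highest adjacent sample, GB359, and the log2 fold change was 2.53 with a standard error of 0.95 (limma adjusted p = 0.0619). It ranged from 1.49 without the adjacent sample of GB370 to 3.19 without the tumor of GB344, and passed the p threshold in no case. *Nkd1* measured 52.8, 52.5 and 22.01 TPM in the adjacent cerebella, and its log2 fold change was 1.59 with a standard error of 0.46 (limma adjusted p = 0.0261), past the fold change but not the p threshold, and it ranged from 1.18 to 1.9998 with the same samples left out. *Ctnnb1* at 408, 389 and 335 TPM and *Axin1* at 34.2, 30.4 and 24.3 TPM in the adjacent cerebella also lay below every tumor, with log2 fold changes of 0.37 (limma adjusted p = 0.0462) and 0.43 (limma adjusted p = 0.0575).

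*Axin2* was almost constant in the adjacent cerebella at 15.7, 15.6 and 15.01 TPM, and its log2 fold change in tumors was -0.13 (limma adjusted p = 0.648). *Lef1* at 3.43, 3.71 and 3.31 TPM, *Tcf7l2* at 5.09, 4.45 and 3.75 TPM and *Apc* at 71.2, 58.1 and 41.5 TPM in the adjacent cerebella overlapped the tumors. Their log2 fold changes lay between -0.23 and 0.08. *Wif1* measured 7.22, 6.69 and 13.7 TPM in the adjacent cerebella, above every tumor, with a log2 fold change of -0.66 (limma adjusted p = 0.110). Genes whose groups did not overlap numbered 4 higher in tumors (*Sfrp1*, *Nkd1*, *Axin1* and *Ctnnb1*) and 2 lower (*Dkk3* and *Wif1*), where 23.7% of all genes were higher in this way and 38.9% lower.

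The third question was whether adjacent cerebellum differed from the control cerebella. *Sfrp1* and *Nkd1* were higher in all 3 adjacent samples than in all 6 controls. *Nkd1* was the 1 of 10 genes called, where 0.224% of 16091 genes were called higher and 0.0124% lower. Its log2 fold change was 1.84 with a standard error of 0.27 (limma adjusted p = 0.00917), close to the threshold. *Sfrp1* had the larger difference, 3.401, with a standard error of 0.60 (limma adjusted p = 0.0130). No overlap was seen for 11.7% of all genes in the higher direction and 7.64% in the lower, and 36 were called higher and 2 lower, or 42 and 18 after quantile normalization.

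The calls in adjacent cerebellum depended on single samples. The call on *Nkd1* was lost without the adjacent sample of GB344 (limma adjusted p = 0.0406), without that of GB359, and without any of the 6 controls in turn. In each of these cases between 0 and 11 of all genes were called higher, in place of 36. Without the adjacent sample of GB370 both genes were called, *Nkd1* at 2.25 (limma adjusted p = 0.000121) and *Sfrp1* at 4.44 (limma adjusted p = 8.64e-06). Calls over all genes rose with them, to 564 higher (3.51%) and 22 lower (0.137%). *Dkk3* was 0.58 higher on the log2 scale in adjacent than in control cerebella (limma adjusted p = 0.0416), with overlapping samples and below the fold change needed for a call. The other 7 genes had log2 fold changes between -0.12 and 0.48.

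How close the adjacent cerebellum came to the tumor differed by mouse and by gene. The adjacent sample of GB344 held 82.7% of the *Sfrp1* TPM of its tumor, that of GB359 held 26.8% and that of GB370 held 2.19%. For *Nkd1* these shares were 77.4%, 28.1% and 15.9%. The 5 progenitor markers had the same order of mice. *Atoh1* stood at 49.98%, 20.7% and 1.57% of the tumor level and *Mki67*, a marker of dividing cells, at 49.2%, 23.7% and 3.42%. Adjacent *Axin1* and *Ctnnb1* lay between 62.6% and 83.0% of the tumor in all 3 mice, and *Axin2* between 83.1% and 152%. The control means of *Axin1* and *Ctnnb1*, 23.3 and 356 TPM, are not far below their tumor means of 40.0 and 488 TPM. Their shares could therefore not fall as low as that of *Sfrp1*. Relative to the control mean, adjacent *Axin1* stood at 1.47-fold, 1.30-fold and 1.04-fold in GB344, GB359 and GB370. For *Ctnnb1* these were 1.14-fold, 1.09-fold and 0.94-fold, the same order of mice. All 5 progenitor markers were at their lowest in adjacent GB370, and the part of tumor or progenitor cells in the adjacent values of *Sfrp1* and *Nkd1* was not tested.

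**Figure D3:**
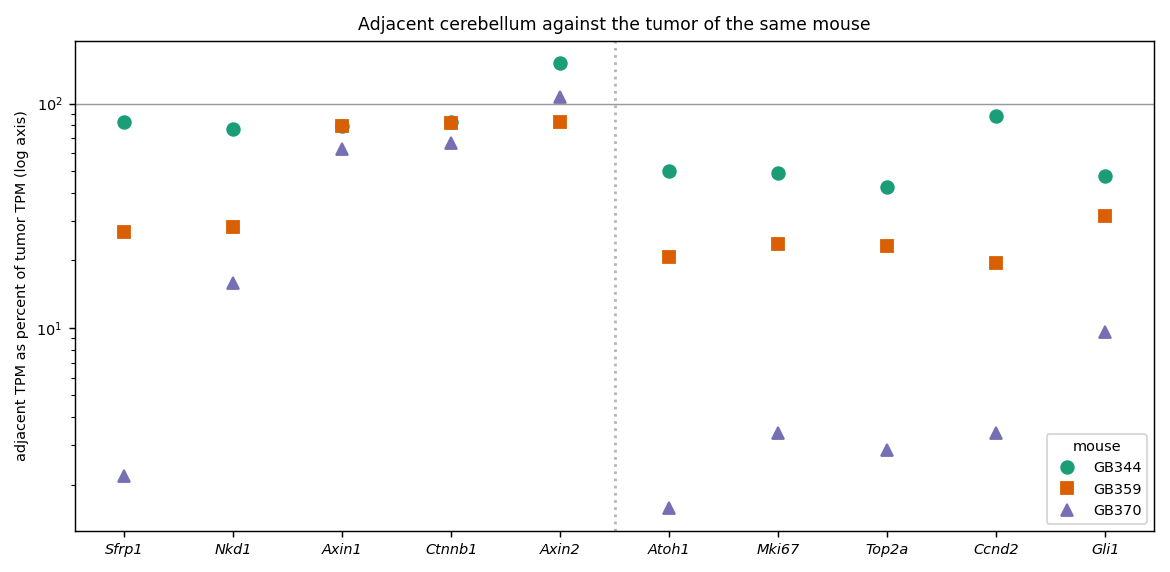
TPM in adjacent cerebellum as a percent of TPM in the tumor of the same mouse (vertical axis, log scale) for 5 of the 10 genes on the left and 5 progenitor markers on the right (horizontal axis). Each symbol is 1 mouse and the line marks 100%. *Sfrp1* falls from 82.7% in GB344 to 2.19% in GB370, and the progenitor markers are also lowest in GB370. *Axin1* and *Ctnnb1* lie between 62.6% and 83.0%. Their control means (23.3 and 356 TPM) are not far below their tumor means (40.0 and 488 TPM), so these shares could not fall as low.

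The last comparison was between the control genotypes. With 3 mice in each, a lack of calls cannot show that the choice of control is without effect. As given above, *Dkk3* in tumors was called against Brca2-mut;Trp53-WT cerebella alone and not against Brca2-WT;Trp53-mut cerebella alone. The fold change of *Wif1* in tumors differed in sign between these controls. Of the 10 genes, 0 were called by limma at these thresholds and 2 had an unadjusted p under 0.05 (*Wif1* and *Dkk3*), where 0.0128% of 15575 genes were called higher in Brca2-mut;Trp53-WT cerebella and 0.0449% lower, 0.0578% in either direction. These are 2 genes higher and 7 lower, or 2 and 1 after median-of-ratios scaling. The share of all genes at that unadjusted p was not computed. *Wif1* had the largest difference. It measured 12.4, 5.49 and 9.55 TPM in Brca2-mut;Trp53-WT mice GB361, GB508 and GB512 and 3.81, 5.35 and 3.19 TPM in Brca2-WT;Trp53-mut mice GB517, GB519 and GB520. The groups were separated only by the small gap between GB508 and GB519, and the log2 fold change was 0.95 with a standard error of 0.28 (limma adjusted p = 0.139).

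*Dkk3* (0.38 on the log2 scale, limma adjusted p = 0.142) and *Ctnnb1* (0.11, limma adjusted p = 0.289) were also higher in all Brca2-mut;Trp53-WT samples. *Sfrp1* (-0.41, limma adjusted p = 0.303), *Axin1* (-0.19, limma adjusted p = 0.291) and *Axin2* (-0.12, limma adjusted p = 0.510) were lower in all of them. Of all genes, 6.7% were higher and 20.3% lower without overlap. Tissue markers differed between these groups too. The summed TPM of 6 choroid plexus markers ran from 18.0 to 879 in Brca2-mut;Trp53-WT cerebella and from 3971 to 5195 in Brca2-WT;Trp53-mut cerebella, and none of the defining markers *Ttr* and *Folr1* was at 0. Purkinje markers summed to between 6113 and 7550 TPM in the former and between 4438 and 4839 in the latter, and the part of these tissues in the differences of the 10 genes was not tested.

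The 10 genes were then set beside 120 other WNT pathway genes grouped by role, of which 104 were expressed well enough to test in tumors against controls. Of these, 19 were called higher, 24 lower and 61 neither, with a median log2 fold change of -0.10 against -0.11 over all genes. These are 18.3% called higher and 23.1% lower, near the 14.4% and 21.5% of all genes tested, so the list as a whole is close to the background, and the counts by role that follow stand against the same background. Every group held calls in both directions. Among ligands, agonists and secretion factors, 1 of 15 tested genes was called higher and 9 lower. *Wnt7a*, which granule neurons release to shape their synapses, fell by 3.60 on the log2 scale, from between 37.5 and 49.4 TPM in controls to 1.47, 4.49 and 3.11 TPM in tumors. *Wnt6* fell by 2.84, *Wnt3* by 2.53 and *Rspo3*, an R-spondin that boosts WNT signaling, by 2.19. Granule neuron, Purkinje and oligodendrocyte markers were called lower in tumors for 6 of 6 genes each and astrocyte and Bergmann glia markers for 6 of 7, and their part in these falls was not tested.

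Among 23 receptors and coreceptors tested, 6 were called higher and 4 lower. *Fzd2*, a Frizzled receptor, had the largest rise of the group at 3.75 on the log2 scale, measuring 53.8, 41.6 and 35.9 TPM in tumors and from 2.01 to 2.81 TPM in controls. Among 15 antagonists tested, 5 were called higher and 3 lower. *Draxin*, an axon guidance protein that also blocks WNT signaling, rose by 7.48, measuring 274, 330 and 325 TPM in tumors and no more than 4.90 TPM in a control. *Sfrp2*, a relative of *Sfrp1*, rose by 4.35, and *Shisa2*, which holds Frizzled receptors inside the cell, by 3.04. *Sostdc1*, another secreted antagonist, had a log2 fold change of -2.37 that did not pass the test (limma adjusted p = 0.0622). It measured between 18.3 and 25.0 TPM in Brca2-WT;Trp53-mut cerebella, 3.64, 0.183 and 0.211 TPM in Brca2-mut;Trp53-WT cerebella and at most 0.355 TPM in tumors. Among called pathway genes, the 6 largest rises and 6 largest falls had limma adjusted p values up to 5.93e-05.

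Downstream of the receptor, calls again went both ways. Of 21 cytoplasmic genes tested, 2 were called higher and 4 lower, the largest fall being 2.43 for *Jup*, which encodes a relative of β-catenin found at cell junctions. Of 16 nuclear genes tested, 1 was called higher and 1 lower, and of 10 genes of the planar polarity branch 2 were called higher and 2 lower.

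Other known targets of the pathway also differed from each other in direction. Of 11 targets tested, 3 were called higher and 2 lower. *Ccnd1*, the gene of cyclin D1, rose by 3.18 on the log2 scale (199, 261 and 260 TPM in tumors and from 18.2 to 30.6 TPM in controls), *Myc* by 3.16 and *Apcdd1*, a membrane inhibitor of WNT, by 1.22. Both *Ccnd1* and *Myc* also respond to many growth signals other than WNT. *Notum*, an enzyme that inactivates WNT proteins, fell by 2.53, from between 5.21 and 6.53 TPM in controls to 0.167, 0.222 and 0.126 TPM in tumors. *Tnfrsf19* fell by 1.05. The remaining targets were not called. Their log2 fold changes were -0.89 for *Lgr5* (limma adjusted p = 0.000141), 0.57 for *Znrf3* (limma adjusted p = 0.00166), 0.97 for *Sp5* (limma adjusted p = 0.0593), -0.31 for *Tcf7*, -0.28 for *Rnf43* and -0.10 for *Nkd2*. *Dkk1* was too low to test, at between 0.307 and 0.564 TPM in tumors.

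**Figure D4:**
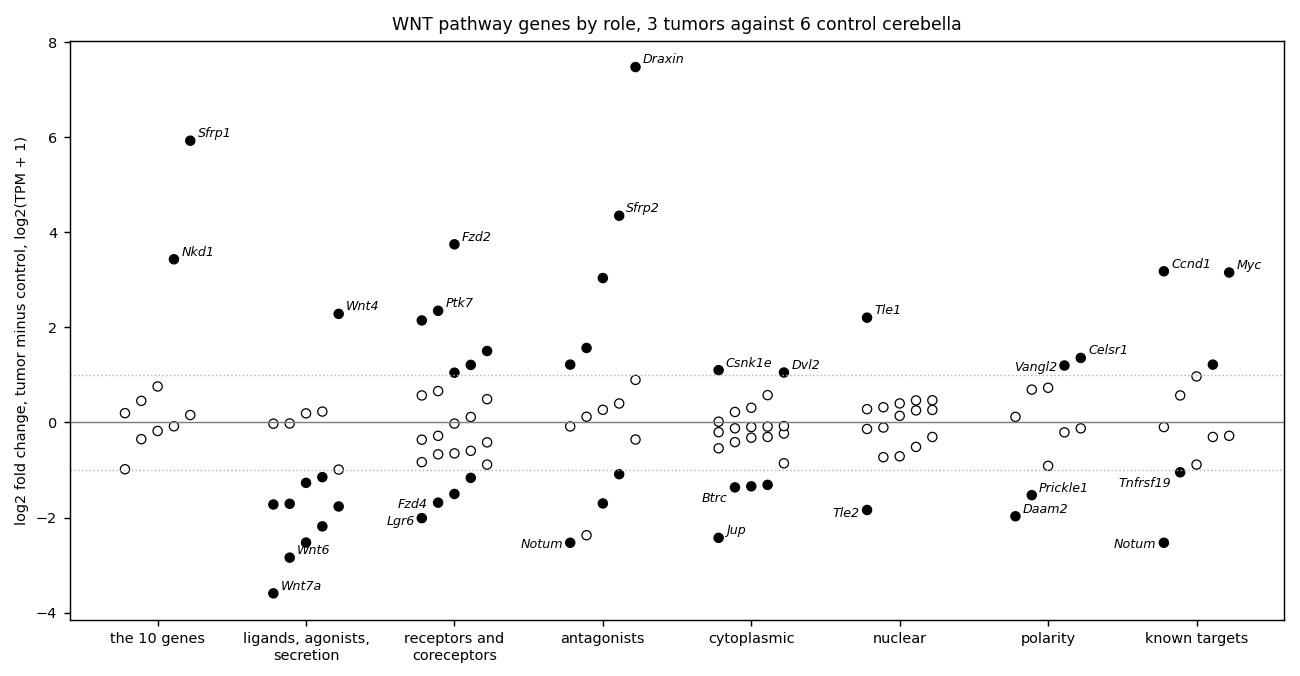
Log2 fold change between 3 tumors and 6 control cerebella (vertical axis, log2(TPM + 1) scale) for the 10 genes and the other tested WNT pathway genes by role (horizontal axis, with points spread sideways for legibility). Filled points were called, dotted lines mark -1 and 1, called genes at the ends of each group are named, and a gene with several roles is drawn in each. The ligands lie mostly below 0, with 9 of 15 called lower, while antagonists reach from -2.53 (*Notum*) to 7.48 (*Draxin*).

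Against adjacent cerebellum, 101 of the 120 pathway genes were tested, 4 were called higher in tumors and 19 lower. These are 3.96% and 18.8%, close to the 4.76% and 18% of all genes tested. The higher genes were *Tle1* (1.53 on the log2 scale), a corepressor that binds TCF factors, and the receptors *Ror2* (1.35), *Ptk7* (1.34) and *Ryk* (1.08), which act mainly outside the β-catenin branch. With the mouse as a block, 2 of the 4 were called, *Ptk7* (limma adjusted p = 0.00624) and *Ryk* (limma adjusted p = 0.00604). The count was 0 without the tumor of GB359, 1 without the tumor of GB370, 1 without the adjacent sample of GB359 and 2 without the tumor of GB344. Over all genes the calls in that direction were also fewer than the 755 of the full comparison, at 275, 189, 210 and 458. The 4 largest falls were *Wnt7a* (-3.19), *Jup* (-2.52), the corepressor *Tle2* (-2.47) and *Wnt3* (-2.42). Between adjacent and control cerebella 0 of 103 pathway genes tested were called by limma, with 30 higher and 10 lower at an unadjusted p under 0.05. Without the adjacent sample of GB370, 8 were called higher, in the setting that called 564 of all genes higher. Between the control genotypes 0 of 99 were called by limma, with 6 higher and 16 lower at an unadjusted p under 0.05. In both comparisons the shares of all genes at that unadjusted p were not computed, so these unadjusted counts have no background beside them.

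Finally, the expression classifier used for human medulloblastoma was read for its WNT and SHH genes, since *Wif1* stands on the former list and *Sfrp1* on the latter. The classifier sorts tumors from one another, whereas here tumors were set against normal cerebellum, so these differences do not assign a subgroup. Of the 5 SHH genes, 4 were called higher in tumors than in controls, where 14.4% of all genes tested were called higher and 21.5% lower. *Atoh1* rose by 7.61 on the log2 scale, *Sfrp1* by 5.93, *Pdlim3*, a cytoskeletal protein, by 2.47, and *Hhip*, a Hedgehog-binding protein, by 1.53. *Eya1*, a transcriptional coactivator, measured between 1.59 and 1.97 TPM in tumors and between 2.37 and 3.96 TPM in controls, with a log2 fold change of -0.55 (limma adjusted p = 0.00595). Of the 5 WNT genes, 3 could be tested and 0 were called higher by limma, nor did any rise at an unadjusted p under 0.05. *Gad1*, which makes the transmitter GABA, fell by 4.91, from between 417 and 530 TPM in controls to 5.26, 21.5 and 23.4 TPM in tumors. Neuron markers, among them those of Purkinje cells, were also lower in these tumors, and their part in the *Gad1* values was not tested. *Tnc*, an extracellular matrix protein, had a log2 fold change of 0.04, with 23.9, 10.5 and 14.9 TPM in tumors.

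The other WNT classifier genes, *Dkk2* and *Emx2*, did not pass the filter on low values. *Dkk2* measured 8.53 TPM in the tumor of GB344 and at most 0.833 TPM in any other sample. The same tumor had the highest summed TPM of 5 fibroblast and meninges markers, 296, where the other tumors had 33.7 and 87.3 and the controls between 101 and 156. Most of that sum was *Igf2*, at 212 TPM, where the other tumors had 12.3 and 29.8 TPM. *Col1a1* was also highest in GB344, at 29.1 TPM against 3.53 and 11.9 TPM in the other tumors and at most 5.78 TPM in controls. *Lum* was highest there too, at 23.8 TPM against 3.06 and 8.27 TPM in the other tumors and at most 4.69 TPM in controls. *Slc6a13* and *Dcn* did not follow: *Slc6a13* was lowest in GB344 at 0.280 TPM, against 1.64 and 3.58 TPM in the other tumors, and *Dcn* was 31.2 TPM there and 33.6 TPM in GB370. The part of such tissue in the *Dkk2* value was not tested.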

How the data were processed

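Poly(A) RNA of 12 mouse samples was sequenced as 75 bp reads. The authors estimated transcript abundance with Salmon 0.8.1 on the mm10 knownGene transcripts, summed it to genes with tximport, and deposited TPM, in which each sample sums to between 999793 and 999876. The authors tested counts with DESeq2; counts were not used here, so TPM were tested with limma 3.58.1 in R 4.3.3 at the study's thresholds. TPM scaling makes each gene relative to all others in its sample, and depth, counting error and detection limits are unknown.

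The 10 genes, the gene lists and the tests were chosen with earlier results of these data known. Genes that reached 1 TPM in 3 or more of the samples compared were fitted on log2(TPM + 1) with an intensity trend in eBayes, using only the groups compared. Adding 1 understates fold changes of low genes. The p-values set each difference against the spread between samples within the groups compared. The reported fit of tumors against adjacent cerebellum was unpaired. Where the controls were pooled, no term for their genotype was fitted, so that spread includes the difference between the genotypes. Other genes were named by rule: the 6 largest rises and 6 largest falls among called pathway genes in tumors against controls, up to 4 each way elsewhere, all listed targets and classifier genes, the first 2 markers of a cell list, and the 3 genes most like *Sfrp1* and *Nkd1*. *Hsd11b2* and *Dkk2* values per sample, *Sostdc1*, further cell markers and the 5 progenitor markers were singled out after their values were seen.

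Tumor and adjacent samples of a number come from the same mouse. Their deviations from the group means correlated at 0.249, 0.176 and 0.152 within mice, so the mouse was also fitted as a block. Gene IDs of 24045 genes matched RefSeq of GRCm38.p6. The 2603 genes at 0 TPM in all samples could not pass the filter, and 0 sample columns were left unused. The code was tested on simulated data. Alternatives were pseudocounts of 0.1 and 0.01, no filter or 5 TPM, other scalings, no trend, a fit of all 4 groups, other thresholds, each control genotype alone and each sample left out.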

Additional observations from a re-analysis of the deposited data

Results flagged for a closer look

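Among the 6 control cerebella, 30 genes were screened for a sample that stood apart from the rest, by Dixon's criterion at the 95% level (a gap of more than 0.625 of the range), and 4 were picked out. Chance alone picks about 1 in 20 groups of normal values from a single population. The controls here pool both genotypes and their TPM need not be normal, so that rate may not hold. *Sfrp1* was lowest in GB512 at 2.93 TPM, where the other controls lay between 5.34 and 6.45 TPM, and without GB512 its log2 fold change in tumors was 5.80. *Myc* was highest in the same mouse at 7.83 TPM, where the others lay between 1.69 and 2.10 TPM. Markers of dividing cells were also highest there, *Mki67* at 5.63 TPM against at most 0.343 and *Top2a* at 8.42 TPM against at most 0.686 in the other controls. Of the other progenitor markers, *Ccnd2* was highest there at 15.7 TPM. *Atoh1* at 0.0689 TPM and *Gli1* at 17.6 TPM were not, with 0.212 and 21.4 TPM in GB361. The part of dividing cells in these values was not tested. *Emx2* was also highest in GB512, at 1.27 TPM, and was listed at 0 in the other controls. *Tcf7* was highest in GB519 at 7.23 TPM, with the others between 2.19 and 3.81 TPM.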

How the results depend on the processing

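Across the settings other than single samples left out, which include each control genotype alone, 357 recomputed log2 fold changes of the 10 genes kept their direction and their side of the threshold, 11 passed it newly, 3 lost it and 11 turned sign, all of genes that were not called. In tumors against controls, *Sfrp1* and *Nkd1* were called in every setting tried. With an adjusted p under 0.05 and no fold change minimum, the 10 genes gave 4 higher and 1 lower. The pathway list of 104 tested genes gave 33 higher and 38 lower. Of all genes, 31.8% were higher and 39.5% lower at that threshold, so the pathway counts are close to the background. *Dkk3* was the 1 gene called lower with a pseudocount of 0.1 or 0.01 and against Brca2-mut;Trp53-WT cerebella alone. *Wif1* turned to 0.035 after quantile normalization and to 0.29 against Brca2-WT;Trp53-mut cerebella alone. *Axin2* turned to 0.027 after median-of-ratios scaling and to 0.085 after quantile normalization. With single samples left out, 2 to 2 of the 10 genes were called higher and 0 to 1 lower, *Wif1* ranged from -0.33 to 0.0075 and *Axin2* from -0.28 to 0.12.

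In tumors against adjacent cerebellum, the fit of all 4 groups called 1 of the 10 genes higher (*Nkd1*) and 10 pathway genes higher. Calls over all genes rose with them, to 1278 higher (8.07%) in place of 755 (4.76%). The looser threshold gave 2 of the 10 and 17 pathway genes higher and 35 lower, where 18.1% of all genes were higher and 32.2% lower. Without a filter 1 pathway gene was called higher, where 465 of all genes were (2.2%). With the mouse as a replicate block 2 pathway genes were called higher in place of 4, where 701 of all genes were. The block changed no call on the 10 genes. *Lef1* turned to 0.14 after quantile normalization, and *Axin2* to 0.066 after median-of-ratios scaling and 0.17 after quantile normalization. With single samples left out, pathway genes called higher ranged from 0 to 4, where all genes called higher ranged from 189 to 913. The log2 fold changes ranged from -0.12 to 0.42 for *Apc*, from -0.66 to 0.082 for *Lef1*, from -0.083 to 0.12 for *Tcf7l2* and from -0.33 to 0.070 for *Axin2*.

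In adjacent cerebellum against controls, 0 of the 10 genes were called by limma without a filter, without an intensity trend or in the fit of all 4 groups. Over all genes 4, 10 and 24 were called higher in these settings. In the reported fit 4 of the 10 genes had an unadjusted p under 0.05, and the share of all genes at that p was not computed. The looser threshold gave 3 of the 10 genes higher, with 17 pathway genes higher and 5 lower. Of all genes, 10.1% were higher and 5.57% lower there. With pseudocounts of 0.1 and 0.01, 1 pathway gene was called higher, where 43 and 44 of all genes were. *Ctnnb1* turned to -0.018 and *Axin2* to -0.039 after median-of-ratios scaling, and *Tcf7l2* to -0.074 and *Axin2* to -0.086 after quantile normalization. With single samples left out, 0 to 2 of the 10 genes and 0 to 8 pathway genes were called higher, as were 0 to 564 of all genes. *Apc* ranged from -0.063 to 0.32. Between the control genotypes, 1 pathway gene was called lower in the fit of all 4 groups and at the looser threshold, where 19 and 65 of all genes were lower. With single samples left out 0 to 1 was called lower (1 without GB361, where 27 of all genes were), while *Lef1* ranged from -0.13 to 0.15 and *Nkd1* from -0.10 to 0.29. *Lef1* and *Tcf7l2* did not pass the minimum of 5 TPM and have no value there. The causes were not tested. With 3 samples per group and no counts, differences within the spread between mice were not detectable here.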
